A study of Mus musculus with 6 samples.

Results

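The interferon-inducible GTPases described here are 10 mouse genes of the guanylate-binding protein (GBP) and immunity-related GTPase (IRG) families. The GBP members are Gbp2, Gbp3, Gbp7 and Gbp9, and the IRG members are Irgm1, Irgm2, Igtp, Ifi47, Tgtp2 and Iigp1. They were taken by symbol from the 55487 genes of the deposited table, and all 10 were found. The table held 18 further genes of both families, which are given beside them. Bulk RNA from primary renal tubular epithelial cells of the mouse was sequenced in 3 Elf3 knockout and 3 control libraries. The knockout cells had received an adenovirus that expresses Cre recombinase and carry the genotype label ELF3 knockout. The control cells had received a control adenovirus and carry the genotype label wild type. Cells of both groups were treated with TNFα and IFNγ after the virus, and all 6 libraries carry the label batch 1. No library without cytokines was analysed, so induction by the cytokines themselves could not be measured. The labels do not state the Elf3 allele, the promoter driving Cre, the share of cells transduced, the strain, sex and age of the mice, or the cytokine doses and times. The labels do not say whether replicates were separate cultures, so p-values measure only the spread between these samples, which may be technical.

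GBP and IRG proteins are GTPases that cells make in large amounts when IFNγ signals through JAK kinases to factors that act at GAS elements, and through IRF1 and other factors at the interferon-stimulated response element (ISRE). In mouse cells they collect on the vacuoles of intracellular parasites and bacteria and help to break them. Among the IRG proteins, Irgm1, Irgm2 and Igtp sit on the cell's own membranes and keep the effector IRG proteins, such as those of Iigp1, Ifi47 and Tgtp2, inactive there. Elf3 is a transcription factor of the ETS family found in epithelia.

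Total estimated counts ranged from 8961779 to 10774195 per library, and 3 counts, the floor used here, corresponded to 0.282 to 0.337 CPM, the count scaled to a common library size by the TMM method. Elf3 itself had 38, 32 and 21 estimated counts in the knockout libraries, against 201, 250 and 206 in the controls, a log2 fold change of -2.84 (edgeR adjusted p = 6.84e-14). All adjusted p-values are from edgeR's quasi-likelihood test with Benjamini-Hochberg adjustment over 13755 genes tested, and a gene is called at an adjusted p under 0.05. Of 19 markers of tubular epithelium, 17 had counts, and Slc22a6 and Aqp2, which mark the proximal tubule and the collecting duct, were at 0 in all 6 libraries. Their summed level was 7840.4 to 8055 CPM in the knockout and 5952 to 6166 CPM in the controls. Fibroblast markers summed to 320 to 333 CPM in the knockout and 257 to 292 CPM in the controls, with Lum at 0. Most of the fibroblast sum was Acta2, which averaged 240 CPM in the knockout and 189 CPM in the controls. Of the 6 fibroblast markers tested, 3 were called higher, namely Acta2, Col1a1 and Pdgfra. Col1a2 was called lower, averaging 15.8 CPM in the knockout and 19.8 CPM in the controls. Endothelial markers summed to 7.97 to 10.9 CPM in the knockout and 1.88 to 2.10 CPM in the controls, with Tie1 at 0. Kdr, the 1 endothelial marker with enough counts to test, made most of this sum, and the other 6 summed to 1.12 to 1.45 CPM in the knockout and 0.292 to 0.942 CPM in the controls.

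Deletion of Elf3 under TNFα and IFNγ was accompanied by changes in both directions among the GTPases. Of the 10 members 9 had enough counts to be tested, of which Gbp9 and Irgm1 were higher in the knockout, Gbp7 and Gbp2 were lower, and 5 did not pass the test. Gbp9 was 2.18-fold higher and Gbp7 2.11-fold lower. The share of all tested genes called was 36.6%, with 18.3% higher and 18.3% lower, so 4 called of 9 members is close to what the whole table shows. The 2 lower calls became 1 without knockout replicate 3, control replicate 1 or control replicate 2, and 4 without knockout replicate 1. The groups did not overlap for 4 of the 9 members, namely Gbp9, Irgm1, Gbp7 and Irgm2, against 46.6% of all tested genes. Of these, 2 lay above the controls, against 23% of all tested genes, and 2 below, against 23.6%. The median log2 fold change was -0.27 over the 9 members and -0.01 over all genes tested. In bulk RNA, fewer cells of a type and less RNA per cell cannot be told apart. Leukocytes also express these GTPases: the 14 leukocyte markers summed to 51.8 to 56.9 CPM in the knockout and 72.7 to 80.8 CPM in the controls. Without Cd14, the 1 marker of the 11 tested that was called, the sums were 44.8 to 49.2 CPM and 49.2 to 54.3 CPM. The T cell marker Cd3e and the cytotoxic cell marker Nkg7 were at 0 in all libraries, and the part that leukocytes, or the other cell types above, have in the results below was not tested.

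**Figure D1:**
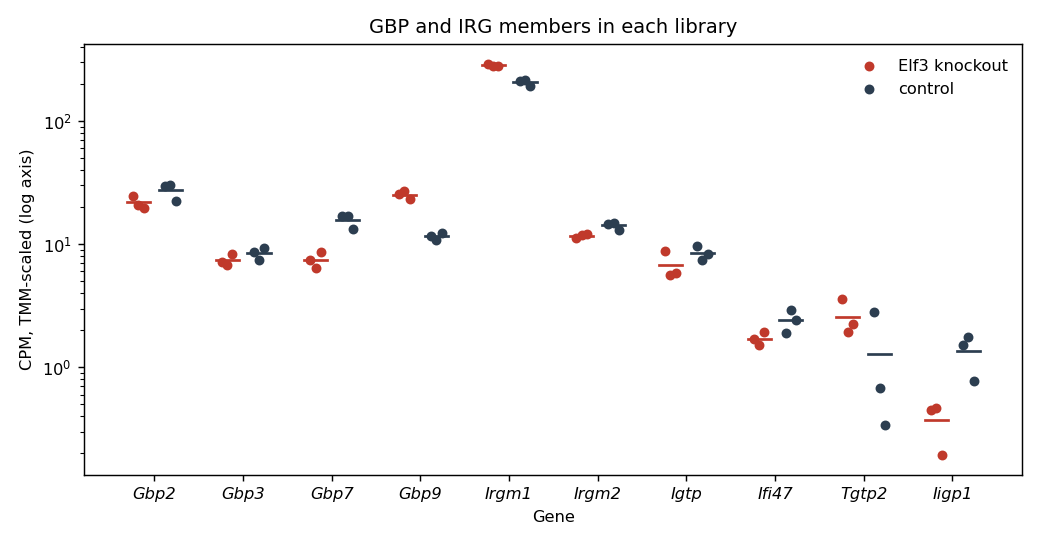
CPM of the 10 members in each library on a logarithmic axis, with Elf3 knockout libraries in red to the left of the control libraries in dark blue and a bar at each group's mean. The knockout points lie above the control points for Gbp9 and Irgm1 and below them for Gbp7, Irgm2 and Iigp1, and the groups overlap for the other 5.

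The promoters are shown because called members of both directions, Gbp7 and Gbp2 lower and Irgm1 higher, hold the same interferon motif. No promoter was found for Gbp9, the other higher member. RefSeq promoters (GRCm38.p6, 250 bases before to 50 after the start) were found for 8 members, namely Gbp2, Gbp3, Gbp7, Ifi47, Igtp, Irgm1, Irgm2 and Tgtp2. The ISRE core was searched on both strands as a pair of GAAA runs with any 2 bases between them. A promoter of 7 of these 8 members held it, against 3.44% of the 32851 promoters in the table. A member was counted if any of its promoters matched, while the share of all is over single promoters. Gbp3 had a second promoter, with upstream bases at chr3:142560106-142560355, which held no match. Ifi47 had no match in this window. In the 30-base windows below, read 5′ to 3′ on each gene's own strand, capitals mark the ISRE matches.
Gbp7 (chr3:142530273-142530302, plus strand): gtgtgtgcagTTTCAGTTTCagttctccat
Gbp2 (chr3:142620594-142620623, plus strand): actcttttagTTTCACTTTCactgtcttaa
Irgm1 (chr11:48871431-48871460, minus strand): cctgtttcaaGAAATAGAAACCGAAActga
Gbp3 (chr3:142559989-142560018, plus strand): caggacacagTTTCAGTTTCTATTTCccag
Igtp (chr11:58199512-58199541, plus strand): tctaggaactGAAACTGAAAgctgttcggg
Irgm2 (chr11:58214903-58214932, plus strand): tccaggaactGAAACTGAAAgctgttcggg
Tgtp2 (chr11:49064263-49064292, minus strand): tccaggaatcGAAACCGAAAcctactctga
The match lay at bases -53 to -44 from the start in Gbp7 and -59 to -50 in Gbp2, both lower in the knockout, and at -30 to -21 and -24 to -15 in Irgm1, which was higher. In Gbp7, Gbp2 and Gbp3 it reads in the opposite orientation to that in Irgm1, Igtp, Irgm2 and Tgtp2. The 2 matches in Irgm1 overlap each other, as do those in Gbp3 at -45 to -36 and -39 to -30. Over 250 upstream bases the promoters of Igtp and Irgm2 were 68.9% identical in an alignment, while those of Gbp7 and Irgm1 were 48.5% identical.

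The GAS core, searched as TTCNNNGAA, was in a promoter of 4 of the 8 members (Gbp7, Igtp, Irgm2 and Tgtp2) and in 8.3% of all promoters. The κB core, GGG and CC with any 5 bases between them, was in 4 of 8 (Gbp2, Gbp3, Igtp and Irgm2) and in 50.8% of all. The sequence CGGAAG, the only one searched for ETS factors, was in 0 of 8, against 16.9% of all promoters. It was also in 0 of the 17 GBP and IRG genes for which a promoter was found in all. Other sequences that ETS factors can bind were not searched. Motifs were searched on both strands, and a match is a description of letters, not of binding. The 250 bases upstream of the most decreased called member and of the most abundant one are given with ISRE and GAS matches in capitals.
Gbp7 (chr3:142530086-142530335, plus strand): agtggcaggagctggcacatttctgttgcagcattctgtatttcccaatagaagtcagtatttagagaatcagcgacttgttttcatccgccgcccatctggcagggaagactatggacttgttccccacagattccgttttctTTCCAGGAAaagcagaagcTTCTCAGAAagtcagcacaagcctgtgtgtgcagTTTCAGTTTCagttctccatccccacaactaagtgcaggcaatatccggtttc
Irgm1 (chr11:48871421-48871670, minus strand): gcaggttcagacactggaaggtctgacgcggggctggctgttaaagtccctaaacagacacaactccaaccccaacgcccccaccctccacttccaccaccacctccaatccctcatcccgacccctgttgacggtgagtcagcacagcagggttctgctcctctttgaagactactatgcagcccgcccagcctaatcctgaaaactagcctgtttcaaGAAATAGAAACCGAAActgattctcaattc
The Gbp7 stretch holds GAS matches at -106 to -98 and -87 to -79 ahead of its ISRE match, and the Irgm1 stretch holds no GAS match. Tgtp2, Igtp and Irgm2 have a GAS match upstream of the ISRE match with 2 bases between them, at -81 to -73, -45 to -37 and -75 to -67.

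**Figure D2:**
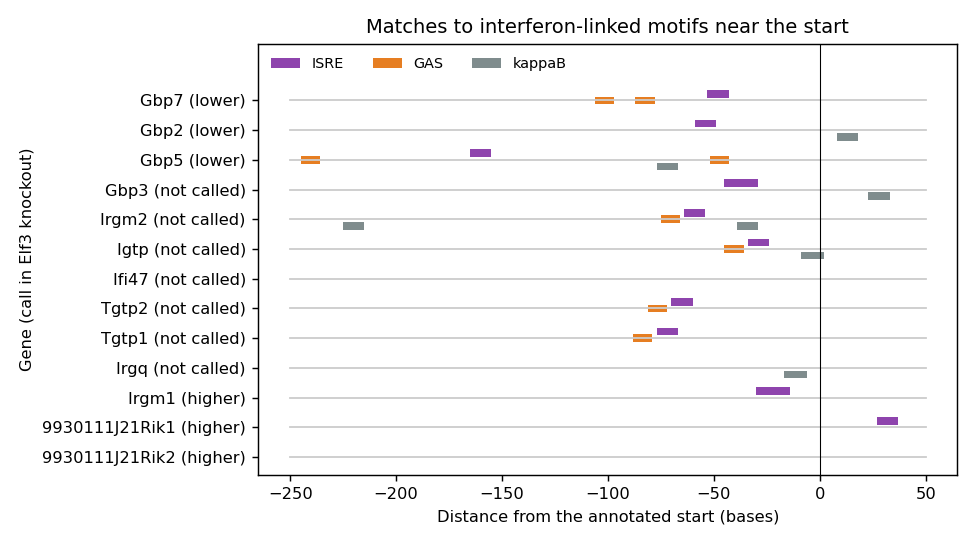
Positions of ISRE (purple), GAS (orange) and κB (grey) matches from 250 bases before to 50 after the annotated start (vertical line) of 13 tested GBP and IRG genes with a promoter in the table, each with its call in the Elf3 knockout. ISRE matches lie between -70 and -15 in 7 members, including lower, higher and uncalled ones.

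Among the GBP members, Gbp9 and Gbp7 moved in opposite directions. Gbp9, one of the less studied GBPs, had 25.4, 27.0 and 23.2 CPM in the knockout libraries, against 11.6, 10.79 and 12.4 CPM in the controls. Every knockout library was above every control. The means were 25.2 ± 1.91 CPM in the knockout and 11.6 ± 0.792 CPM in the controls (SD, n = 3 each), a log2 fold change of 1.12 ± 0.118 (SE, edgeR adjusted p = 4.34e-09). Gbp7, which mouse macrophages need for a full oxidative response to bacteria, had 7.47, 6.42 and 8.59 CPM in the knockout libraries, against 17.0, 17.0 and 13.3 CPM in the controls. Here each knockout library was below each control, and the highest knockout value was well under the lowest control. The means were 7.49 ± 1.09 CPM in the knockout and 15.8 ± 2.13 CPM in the controls (SD, n = 3 each), a log2 fold change of -1.07 ± 0.153 (SE, edgeR adjusted p = 1.33e-06). The log2 ratio of Gbp9 to Gbp7 within a library was 1.76, 2.07 and 1.43 in the knockout and -0.55, -0.66 and -0.10 in the controls. This ratio of counts, not scaled by length, was above 0 in all 3 knockout libraries and below 0 in all 3 controls. The difference in this ratio was 2.19 on the log2 scale (two-sided exact permutation test, p = 0.1, the smallest that 3 against 3 libraries allow, and 0.133 adjusted over 4 pairs). Since Gbp9 lay above and Gbp7 below every control, this p was fixed in advance and adds nothing to the 2 calls.

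Gbp2, which carries a lipid anchor and collects on the vacuole of Toxoplasma in mouse cells, was the most abundant GBP member per transcript length. It had 24.8, 20.97 and 19.7 CPM in the knockout libraries, against 29.6, 30.3 and 22.4 CPM in the controls. The groups overlapped, since the lowest control lay below the highest knockout library. Gbp2 was 1.27-fold lower in the knockout, with a log2 fold change of -0.34 ± 0.115 (SE, edgeR adjusted p = 0.0188). The call was lost when control replicate 2 (edgeR adjusted p = 0.131), control replicate 1 (0.108), knockout replicate 3 (0.107) or knockout replicate 2 (0.0536) was left out. DESeq2 gave an adjusted p of 0.0544 for it. Gbp3, another GBP of the same chromosomal group, had 7.18, 6.77 and 8.31 CPM in the knockout libraries, against 8.57, 7.39 and 9.28 CPM in the controls, and the groups overlapped. Its log2 fold change was -0.18 with a 95% interval of -0.52 to 0.17 (edgeR adjusted p = 0.460). The ratio of Gbp2 to Gbp3 differed by -0.14 on the log2 scale between knockout and control (two-sided exact permutation test, p = 0.6).

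Of the regulatory IRG members, Irgm1 was higher in the knockout and its relatives were not called. Irgm1, whose loss in mice leads to failure of host defence and of blood cell renewal during infection, had 292, 281 and 279.8 CPM in the knockout libraries, against 209.6, 214 and 193 CPM in the controls. All knockout libraries were above all controls, with little spread inside either group. The means were 284 ± 6.90 CPM in the knockout and 206 ± 11.1 CPM in the controls (SD, n = 3 each), 1.38-fold higher (log2 fold change 0.47 ± 0.0505, SE, edgeR adjusted p = 7.91e-09). Irgm2 had 11.1, 11.9 and 12.2 CPM in the knockout libraries, against 14.5, 15.0 and 13.03 CPM in the controls. Its groups did not overlap, but the change missed the threshold. Its log2 fold change was -0.27 with a 95% interval of -0.53 to -0.01, unadjusted (edgeR adjusted p = 0.111). Igtp, also called Irgm3, had 8.86, 5.64 and 5.79 CPM in the knockout libraries, against 9.61, 7.39 and 8.28 CPM in the controls. Knockout replicate 1 lay among the controls and the other 2 knockout libraries below them. The log2 fold change of Igtp was -0.33 (edgeR adjusted p = 0.186), and without knockout replicate 1 it was -0.55 (edgeR adjusted p = 0.0340). The log2 ratio of Irgm1 to Irgm2 averaged 4.60 ± 0.104 in the knockout and 3.86 ± 0.0259 in the controls, a difference of 0.74 (two-sided exact permutation test, p = 0.1, 0.133 adjusted over 4 pairs). With Irgm1 above and Irgm2 below every control, this p was also fixed in advance. For Irgm1 to Igtp the ratio averaged 5.43 ± 0.332 in the knockout and 4.62 ± 0.215 in the controls (SD, n = 3 each), a difference of 0.81 with the same exact permutation p.

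The effector IRG members were low in both groups, and no call was made for them. Ifi47, also called Irgd, had 1.68, 1.504 and 1.93 CPM in the knockout libraries, against 1.88, 2.92 and 2.43 CPM in the controls. The groups overlapped, and the log2 fold change was -0.49 ± 0.335 (SE, edgeR adjusted p = 0.264). Tgtp2, a near copy of Tgtp1, had 3.58, 1.93 and 2.24 CPM in the knockout libraries, against 2.81, 0.676 and 0.340 CPM in the controls. Control replicate 1 lay among the knockout libraries, and the other 2 controls lay far below. The log2 fold change of Tgtp2 was 0.95 (edgeR adjusted p = 0.0987), and without control replicate 1 it was 2.29 (edgeR adjusted p = 0.00143). Its counts were fractional in all 6 libraries, and with Tgtp1 and Tgtp2 summed the log2 fold change was 0.06 (edgeR adjusted p = 0.664). Iigp1, also called Irga6, an effector that coats the Toxoplasma vacuole, was too low for the filter, with 4, 5 and 2 estimated counts in the knockout libraries, against 16, 18 and 7 in the controls. All knockout counts were under all control counts. Over the libraries this was 11 counts in the knockout against 41 in the controls, a ratio of 0.269 with a 95% exact interval of 0.125 to 0.532 for counting error only. Fitted without the count filter, Iigp1 had a log2 fold change of -1.85 (edgeR adjusted p = 0.0128).

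Per transcript length, Irgm1 dominated the members in both groups. In TPM, the authors' length-normalised abundance, Irgm1 stood at 247 ± 0.494 in the knockout and 179 ± 10.6 in the controls (SD, n = 3 each), followed by Gbp2 at 16.2 ± 1.32 and 20.3 ± 3.03 TPM. Irgm1 made up 82.1, 83.5 and 83.4% of the members' summed TPM in the knockout libraries, against 74.4, 76.4 and 75.6% in the controls. The summed level was 302, 296 and 297 TPM in the knockout and 245, 246 and 221 TPM in the controls. Without Irgm1 it was 53.9, 48.9 and 49.3 TPM in the knockout and 62.8, 58.0 and 53.9 TPM in the controls, so the higher total lay in Irgm1. In the knockout, Gbp9 ranked 3 at 9.80 ± 0.832 TPM, above Igtp (6.35 ± 1.55), Irgm2 (6.05 ± 0.437), Gbp3 (5.40 ± 0.342), Gbp7 (2.77 ± 0.378), Ifi47 (2.16 ± 0.409), Tgtp2 (1.67 ± 0.522) and Iigp1 (0.283 ± 0.116). In the controls the order after Gbp2 was Igtp (8.09 ± 0.9502), Irgm2 (7.28 ± 0.586), Gbp3 (6.68 ± 1.39), Gbp7 (5.86 ± 0.834), Gbp9 (5.38 ± 1.21), Ifi47 (2.83 ± 0.524), Iigp1 (0.947 ± 0.223) and Tgtp2 (0.827 ± 0.867). Gbp9 was thus clear of Igtp in the knockout, while in the controls its TPM range overlapped that of Gbp7. The ranges of Igtp and Irgm2, and of Irgm2 and Gbp3, overlapped in both groups. In the knockout those of Gbp7 and Ifi47 and of Ifi47 and Tgtp2 also overlapped, and in the controls those of Gbp3 and Gbp7 and of Iigp1 and Tgtp2. In TPM the change of Gbp9 was smaller than in counts, 0.87 on the log2(TPM + 0.1) scale and 0.77 on the log2(TPM + 1) scale. That of Gbp7 was -1.05 and -0.86 on the same scales, and a larger pseudocount understates changes of low genes.

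Of the 18 other GBP and IRG genes, 17 had at least 1 count and 7 were tested. Gbp8 and the paired IRG genes 9930111J21Rik1 and 9930111J21Rik2 were higher in the knockout, Gbp5 and Gbp6 were lower, and Tgtp1 and Irgq were not called. Their median log2 fold change was 0.01. Across all tested genes, 18.3% were called in each direction. With paralog pairs summed, each pair counting as 1 gene, 2 were called higher and 2 lower. 9930111J21Rik2, which RefSeq also lists as Irgb5, had 117, 127 and 111 CPM in the knockout libraries, against 64.9, 58.6 and 59.4 CPM in the controls, 1.94-fold higher (edgeR adjusted p = 7.27e-13). 9930111J21Rik1 had 37.0, 34.6 and 42.8 CPM in the knockout libraries, against 17.3, 18.2 and 17.8 CPM in the controls, 2.15-fold higher (edgeR adjusted p = 2.5e-10). In both genes the knockout libraries were well above every control. Gbp8 averaged 4.35 ± 0.692 CPM in the knockout and 1.78 ± 0.559 CPM in the controls, 2.41-fold higher (edgeR adjusted p = 0.000945). Gbp5, which helps the NLRP3 inflammasome to assemble in mouse macrophages, averaged 1.22 ± 0.419 CPM in the knockout and 2.46 ± 0.675 CPM in the controls, 1.98-fold lower (edgeR adjusted p = 0.0367). That call was lost without control replicate 3 (edgeR adjusted p = 0.157), knockout replicate 1 (0.130), knockout replicate 3 (0.121) or control replicate 1 (0.102). Gbp6 had 0.673, 0 and 0.676 CPM in the knockout libraries, against 1.66, 2.55 and 1.77 CPM in the controls. Its log2 fold change was -2.16 (edgeR adjusted p = 0.00154), and the counts were fractional in 2 libraries. It was -1.55 without knockout replicate 2 (edgeR adjusted p = 0.0184) and -1.70 with the overlapping gene Gm43302 added (0.00157). Tgtp1 averaged 24.2 ± 1.22 CPM in the knockout and 24.3 ± 1.27 CPM in the controls (edgeR adjusted p = 0.956). Irgq averaged 137 ± 8.83 CPM in the knockout and 136 ± 2.76 CPM in the controls (edgeR adjusted p = 0.917). The 95% interval of the log2 fold change was -0.20 to 0.19 for Tgtp1 and -0.10 to 0.12 for Irgq.

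The remaining 11 genes were near the floor. Gbp4 had 23 estimated counts over the knockout libraries and 38 over the controls, a ratio of 0.606 with a 95% exact interval of 0.345 to 1.04 for counting error only. Gm12185 had 25 counts in the knockout and 16 in the controls, and Gm5431 had 10 in the knockout and 4 in the controls. Gm12250, which RefSeq also lists as Irgb10, had 6 in the knockout and 7 in the controls. The GENCODE M21 annotation lists Gm12250 as a processed pseudogene, and whether that gene model lowers its counts was not tested. The knockout libraries held 2 counts of Gbp2b, also called Gbp1, 1 of Gm4841 and 0 of Gbp10, Gm4951, F830016B08Rik and Irgc1. The controls held 0 counts of Gbp2b, 3 of Gm4841, 2 of Gbp10, 5 of Gm4951 and 1 each of F830016B08Rik and Irgc1. Gbp11 had no count in any library.

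Laid out along the genome (mm10, GENCODE M21), the GBP groups on chromosomes 3 and 5 differed from the controls in opposite directions in their summed level. On chromosome 3, the group from Gbp5 to Gbp2 (chr3:142493978-142638008), with Gbp7 at chr3:142530342-142550149, Gbp3 and Gbp2b between them, had 3 of 4 tested genes lower and none higher. Its summed level was 38.0 ± 2.38 CPM in the knockout and 54.1 ± 5.22 CPM in the controls, a log2 difference of -0.51, and the groups did not overlap. On chromosome 5, the group from Gbp8 to Gbp11 (chr5:105014150-105346472), with Gbp9 at chr5:105077630-105139539 on the minus strand, had 2 genes higher and Gbp6 lower. It summed to 30.7 ± 2.34 CPM in the knockout and 16.6 ± 0.667 CPM in the controls, a log2 difference of 0.88, with every knockout library above every control. Gbp9 alone averaged 25.2 CPM in the knockout and 11.6 CPM in the controls, so most of this difference lay in Gbp9. The larger IRG group on chromosome 11 (chr11:48861968-49096974) runs from Irgm1 to Ifi47 and had 3 of 6 tested genes higher and none lower. It summed to 470.4 ± 8.13 CPM in the knockout and 313 ± 13.9 CPM in the controls, a log2 difference of 0.59. The smaller one (chr11:58187739-58222782), with Gm12250, Igtp and Irgm2, summed to 18.7 ± 1.20 CPM in the knockout and 22.9 ± 1.11 CPM in the controls, a log2 difference of -0.29 with no gene called. The group on chromosome 18 (chr18:60212080-60392634), where most counts were those of Iigp1, summed to 0.402 ± 0.190 CPM in the knockout and 1.64 ± 0.565 CPM in the controls. The sums are given as values, without a test, and 18.3% of all tested genes were called in each direction.

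**Figure D3:**
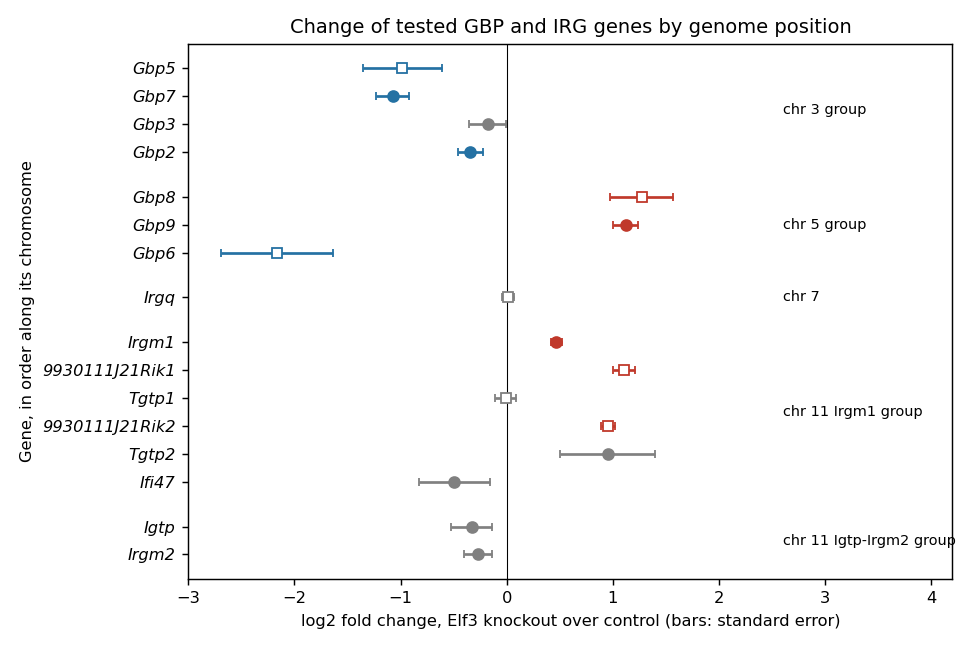
log2 fold change of the 16 tested GBP and IRG genes, Elf3 knockout over control, with standard errors as bars, in order along each chromosome. Filled circles are the members and open squares the other genes, coloured red where called higher, blue where called lower and grey where not called. The chromosome 3 group lies below 0 with Gbp3 uncalled, and Gbp8 and Gbp9 lie near 1 while Gbp6 on the same chromosome lies below -2.

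Reads shared between paralogs bear on some of these genes more than on others. Transcripts of GENCODE M21 were cut into all words of 100 bases, and a word found in another gene was counted as shared. No word of Gbp2, Irgm1 or Iigp1 was shared, and the shares were 1.65% for Gbp9, 0.694% for Gbp3, 0.842% for Ifi47, 3.01% for Irgm2 and 5.16% for Igtp. For Gbp7 it was 10.01%, most of it with the processed pseudogene Gm43802, whose exon overlaps Gbp7 exons by 637 bases on the same strand. Gm43802 had 7.43, 1.76 and 0 estimated counts in the knockout libraries, against 0, 0 and 1.70 in the controls, and adding them to Gbp7 gave a log2 fold change of -1.02 (edgeR adjusted p = 2.25e-06). Tgtp2 shared 76.8% of its words and Tgtp1 73.2%, almost all with each other, and values for either are uncertain. The same holds for 9930111J21Rik1 (70.6%), 9930111J21Rik2 (48.3%), Gbp6 (64.5%) and Gbp10 (73.5%). Gbp9, Gbp8 and Gbp4 overlap by 60 or 61 exon bases at a common start on the minus strand of chromosome 5, and Igtp and Irgm2 by 162 bases, so reads there belong to more than 1 gene. Ifi47 exons overlap those of Olfr56 on the same strand by 111 bases and those of the pseudogene Gm12188 on the opposite strand by 106 bases. The labels do not state whether counting used strand, which bears on the second overlap.

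The genes whose pattern over the 6 libraries was most like that of Gbp9 were Spsb1, Htra1 and Foxl2, at Euclidean distances of 0.0907, 0.136 and 0.137 in log2 CPM centred on each gene's mean. For Gbp7 they were Cxcl2, Ttc26 and Birc5, at 0.187, 0.221 and 0.258. These are the nearest of 11073 genes, and the 6 libraries include the group difference itself. Spsb1 averaged 119 ± 6.99 CPM in the knockout and 55.2 ± 3.00 CPM in the controls. Cxcl2, a neutrophil-attracting chemokine, averaged 6.52 ± 1.30 CPM in the knockout and 13.2 ± 1.33 CPM in the controls.

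Of 16 genes of IFNγ signalling, the pathway that turns these GTPases on, 15 were tested. Of these 3 were higher, 5 lower and 7 not called, against 18.3% of all tested genes in each direction, with a median log2 fold change of 0.05. In TPM 2 of them were called lower, and fewer genes of the whole table were called as well. Among the receptors, Ifngr1, the ligand-binding chain, had 124, 119 and 127 CPM in the knockout libraries, against 205, 202 and 208 CPM in the controls. It was 1.66-fold lower with no overlap between groups (edgeR adjusted p = 9.83e-13). Ifngr2, the chain that completes the receptor, averaged 161 ± 1.75 CPM in the knockout and 122 ± 4.97 CPM in the controls, 1.32-fold higher (edgeR adjusted p = 6.44e-07). The kinases Jak1 and Jak2 averaged 216 ± 8.97 and 100.4 ± 3.08 CPM in the knockout, against 208 ± 1.49 and 91.1 ± 8.98 CPM in the controls, and neither was called (edgeR adjusted p = 0.484 and 0.1105). Stat2 and Irf9, subunits of the complex that binds ISREs after type I interferon, were 1.45-fold and 1.34-fold lower (edgeR adjusted p = 0.000676 and 0.00269), and Stat3 was 1.31-fold lower (3.39e-06). Irf1, a factor that IFNγ induces and that acts on Gbp2 in mouse macrophages, had 56.3, 55.8 and 63.9 CPM in the knockout libraries, against 44.4, 44.1 and 49.5 CPM in the controls. All knockout values of Irf1 were above all controls, 1.28-fold higher (edgeR adjusted p = 0.00048). The feedback inhibitor Socs3 averaged 27.6 ± 0.433 CPM in the knockout and 15.0 ± 2.15 CPM in the controls, 1.84-fold higher (edgeR adjusted p = 1.99e-07). Its relative Socs1 averaged 2.81 ± 1.20 CPM in the knockout and 2.01 ± 0.190 CPM in the controls and was not called (edgeR adjusted p = 0.295). Irf2, Irf8, Ptpn2 and Pias1, which are further interferon factors or restrain the pathway, had log2 fold changes of 0.06, 0.28, -0.02 and -0.05 and were not called. Batf2 was under the filter, with 1 count in the knockout and 2 in the controls.

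Among 22 other IFNγ targets, 16 were tested, of which 1 was higher, 8 lower and 7 not called. The median log2 fold change was -0.40, against -0.01 over all genes tested, of which 18.3% were called in each direction. Tapbp and Tap2, which load and carry peptides for MHC class I, were 1.33-fold and 1.54-fold lower (edgeR adjusted p = 2.32e-06 and 2.51e-05). Bst2, which tethers budding viruses, and Parp14, an ADP-ribosyltransferase, were 1.40-fold and 1.31-fold lower (edgeR adjusted p = 5.01e-05 and 6e-05). Tap1, the partner of Tap2, was the 1 higher gene, at 1.35-fold (edgeR adjusted p = 0.000373), and was named after its value was seen. The other 6 were under the filter, among them Ido1 with 0 counts, Cxcl9 with 9 counts in the knockout and 4 in the controls, and Nos2 with 3 and 6.

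Of the GTPases of other interferon-inducible families, the 3 tested genes of the very large inducible GTPases (GVIN) were all lower. Across all tested genes, 18.3% were called lower. Gvin1 averaged 494 ± 24.4 CPM in the knockout and 568 ± 20.5 CPM in the controls, 1.15-fold lower (edgeR adjusted p = 0.000834). Gm4070 averaged 313 ± 15.5 CPM in the knockout and 415 ± 24.0 CPM in the controls, 1.32-fold lower (edgeR adjusted p = 1.06e-07), and Gm8989 was 3.87-fold lower (4.63e-07). Counts of all 3 were fractional in 5 or 6 libraries, so the split between these near copies is uncertain. Mx1 and Mx2, antiviral GTPases, had 1 and 2 counts in the knockout, against 7 and 5 in the controls.

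Genes that GBP and IRG proteins work with were described by lists. Of 19 genes for lipid modification and autophagy conjugation, 5 were higher, 5 lower and 9 not called, with a median of 0.10. Among all tested genes 18.3% were called in each direction, and under DESeq2 the list had 3 higher and 3 lower. The 5 higher became 3 without knockout replicate 1, and the 5 lower became 3 without knockout replicate 2. Gabarapl2 and Gabarapl1, ubiquitin-like proteins of the family that directs these GTPases to vacuoles in mouse cells, were 1.43-fold and 1.59-fold lower (edgeR adjusted p = 1.58e-07 and 1.94e-09). Map1lc3a, of the same family, was 1.28-fold lower (edgeR adjusted p = 0.00175). Gabarap and Map1lc3b, more abundant genes of this family, had log2 fold changes of 0.12 and 0.10 and were not called (edgeR adjusted p = 0.123 and 0.119). These 2 were named after their values were seen. Sqstm1, an autophagy receptor, averaged 1197 ± 31.4 CPM in the knockout and 865 ± 41.2 CPM in the controls, 1.38-fold higher (edgeR adjusted p = 2.5e-10). Of 11 inflammasome and pyroptosis genes 7 were tested. Of these 2 were higher, 1 lower and 4 not called, against 18.3% of all tested genes in each direction. Casp4, the sensor of bacterial lipopolysaccharide that GBPs help to activate, had 0.785, 1.32 and 1.06 CPM in the knockout libraries, against 4.43, 5.15 and 4.09 CPM in the controls. Every knockout value was below every control, 4.24-fold lower (edgeR adjusted p = 3.57e-06). Pycard, the adaptor that links sensors to caspase-1, had 4.71, 5.55 and 7.05 CPM in the knockout libraries, against 1.13, 2.43 and 1.66 CPM in the controls, 3.32-fold higher (edgeR adjusted p = 1.38e-05). Ninj1, which ruptures the membrane of dying cells, was 1.23-fold higher (edgeR adjusted p = 0.0219). That call was lost when knockout replicate 1 or 3 or control replicate 2 or 3 was left out (highest adjusted p = 0.0774) and under DESeq2 (0.0508). The 2 higher calls on this list became 1 without knockout replicate 1 or control replicate 2.

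**Figure D4:**
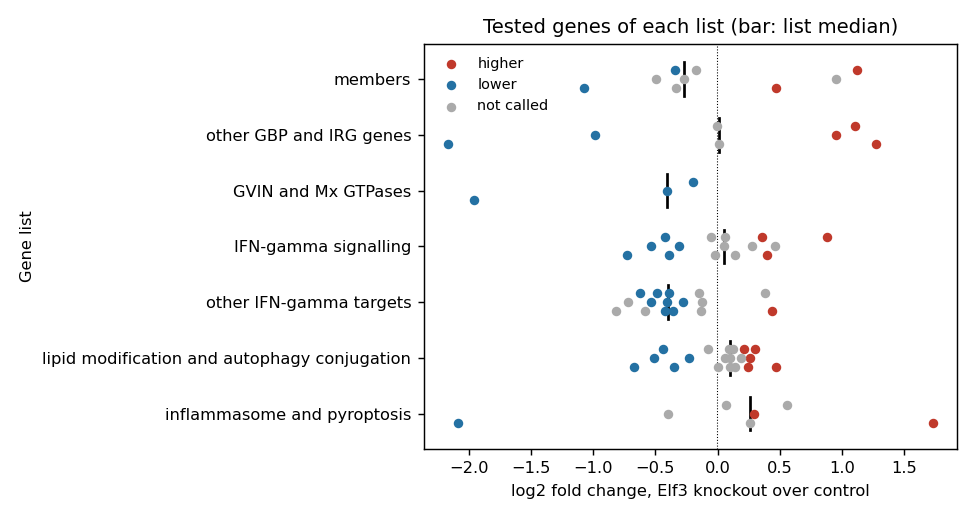
log2 fold change, Elf3 knockout over control, of every tested gene in each list, 1 point a gene, in red where called higher, blue where called lower and grey where not called, with a black bar at the list's median and a dotted line at the median of all tested genes. The members spread from -1.07 for Gbp7 to 1.12 for Gbp9, and the other IFNγ targets lie mostly below 0 with a median of -0.40.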

How the data were processed

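Bulk RNA sequencing after mRNA enrichment, per the labels' protocols, gave 6 libraries, grouped by their titles into 3 Elf3 knockout and 3 control. The authors deposited estimated counts per gene without normalisation, and 93.3% of nonzero values were whole within 1e-06. They also deposited TPM. Named in the submitters' processing notes are Salmon, featureCounts and mm10, without versions. Annotation release, strand setting and filters are not stated there.

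After rounding of the estimated counts, filterByExpr kept 13755 of 55487 genes. These were scaled by TMM and fitted without covariates by edgeR 4.0.16 (R 4.3.3), using its quasi-likelihood test. Adjustment was by Benjamini-Hochberg over all tested genes, with a threshold of 0.05. The biological coefficient of variation was 5.35%. Replicates differed by more than sampling noise (chi-square per degree of freedom 2.03 to 3.67). Intervals of count ratios and floors cover counting error only, while those of log2 fold changes come from edgeR's standard error and include the spread between replicates. On simulated data for 13755 genes the test recovered 44% of changes of 1.25-fold, 78% at 1.5-fold, 82% at 2-fold and 98% at 4-fold, with 50 genes a size. Positions, exon overlaps and shared words of 100 bases are from GENCODE M21, which held 55227 of the gene identifiers, and promoters are from RefSeq.

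The members and lists were chosen with earlier results of these data known. Named genes were the members, all other GBP, IRG and IFNγ signalling genes with a count, up to 4 called genes of smallest p in each other list, and for Gbp9 and Gbp7 the 3 nearest genes of at least 5 CPM; 1 gene on the signalling list is not reported here. Alternatives were DESeq2 1.42.0, limma-voom and limma on TPM (limma 3.58.1, pseudocounts of 1 and 0.1, a mean TPM of at least 0.5 or no filter), RLE size factors, library totals, counts rounded down, no count filter, only genes averaging 5 CPM or more, an adjusted p under 0.01, summed paralog pairs, a replicate block and each library left out. Adding overlapping neighbours to Gbp7 and Gbp6 was chosen after seeing the data.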

Additional observations from a re-analysis of the deposited data

How the results depend on the processing

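The calls of Gbp9, Irgm1 and Gbp7 held under every alternative fitted, with log2 fold changes of 0.77 to 1.18, 0.43 to 0.50 and -1.19 to -0.86, and no member changed direction. Gbp2 lost its call under DESeq2, an adjusted p under 0.01 and all 3 TPM fits (adjusted p = 0.154 to 0.228 in limma). Members called lower then numbered 1. Other GBP and IRG genes called lower numbered 1 under DESeq2, an adjusted p under 0.01 and TPM without a filter, and 0 under both filtered TPM fits and a mean of at least 5 CPM, which does not test these low genes. Calls over all tested genes also fell, from 2516 higher and 2512 lower to 1866 and 1755 at an adjusted p under 0.01. In TPM they numbered 1421 and 1291 of 15429 genes with the filter and a pseudocount of 1. Without a TPM filter they numbered 1195 and 980 of 22670 genes. In IFNγ signalling 2 were lower in each TPM fit and 1 higher in TPM without a filter. Other IFNγ targets had 0 higher in each TPM fit and 3 lower in TPM without a filter. The lipid and autophagy list had 3 higher under DESeq2 and at 0.01, 1 in each TPM fit, and 3 lower under all of these. Inflammasome genes called higher numbered 1 under DESeq2, at 0.01, in both filtered TPM fits and at a mean of at least 5 CPM, and 0 in TPM without a filter. Casp4 is below 5 CPM, so 0 were lower there. In summed TPM the log2 difference was 0.53 for the chromosome 11 group with Irgm1 and 0.68 for that on chromosome 5. The cause of these shifts was otherwise not tested.

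With 1 library left out, members called higher numbered 2 to 3 and lower 1 to 4, other family genes called lower 1 to 2, IFNγ signalling genes higher 3 to 4, other targets lower 6 to 10, lipid and autophagy genes higher 3 to 6 and lower 3 to 5, and inflammasome genes higher 1 to 2. Tgtp2 passed the threshold in limma-voom (adjusted p = 0.0232), without the count filter (edgeR, 0.0418) and with a replicate block (edgeR, 0.0168). Deviations from the group mean correlated at 0.00734, 0.00251 and 0.00343 for same-numbered libraries and at -0.0326 to 0.0282 for the others. With 3 libraries a group this cannot decide whether the numbers pair the samples, which the labels do not state. The replicate block gave 3 members higher and 2 lower, and 2561 genes higher and 2585 lower in all, against 2516 and 2512 without it. Library totals gave 2252 higher and 2810 lower and DESeq2 2232 and 2034. Depth limits Iigp1 and Ifi47, and among the other genes Gbp4, Gbp5 and Gbp6, which lie within a few CPM of the floor of 3 counts. Shared reads also limit Tgtp2 and Gbp6.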

Other observations

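Some further genes that work with the GTPases changed, and they are named here after their values were seen. The ubiquitin ligases Traf6 and Trim21, which are recruited to GTPase-coated vacuoles in mouse cells, are given first. Traf6 averaged 61.7 ± 3.09 CPM in the knockout and 51.6 ± 3.38 CPM in the controls, 1.20-fold higher (edgeR adjusted p = 0.00562). Trim21 averaged 10.4 ± 2.48 CPM in the knockout and 14.1 ± 0.998 CPM in the controls, 1.36-fold lower (edgeR adjusted p = 0.0233). The Trim21 call was lost under DESeq2 (adjusted p = 0.0627) and without knockout replicate 2 or control replicate 2 (edgeR, up to 0.213). Of the subunits of farnesyltransferase, an enzyme that adds lipid anchors to proteins, Fntb was 1.23-fold higher (edgeR adjusted p = 0.0262) and Fnta 1.17-fold lower (0.0221). Both were lost under DESeq2 (adjusted p = 0.0618 and 0.0580), Fntb also without knockout replicate 1 or control replicate 2 or 3 (edgeR, up to 0.123), and Fnta without knockout replicate 2 or 3 or control replicate 3 (up to 0.145). The proteasome activator genes Psme1 and Psme2, which IFNγ induces, were 1.28-fold and 1.21-fold lower (edgeR adjusted p = 0.000271 and 0.00508), and Psme2 missed the threshold without knockout replicate 2 or control replicate 3 (up to 0.0758). The T cell chemokine Cxcl10 had 9.76, 7.90 and 8.40 CPM in the knockout libraries, against 13.003, 13.02 and 11.5 CPM in the controls. Its groups did not overlap, and it was 1.45-fold lower (edgeR adjusted p = 0.00531).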
